A study of Homo sapiens with 6 samples.

Results

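The 37 genes described here encode proteins that bring glucose and other hexoses into the cell, break glucose down by glycolysis, pass it through the pentose phosphate pathway and store it as glycogen. They were chosen by gene symbol, and all 37 had a row, each symbol once, among the 35009 genes of the deposited table. They comprise 4 hexose transporters, 16 glycolytic enzymes, 4 regulators of fructose 2,6-bisphosphate, 6 pentose phosphate enzymes and 7 glycogen enzymes. The RNA, selected for poly(A) tails, came from THP-1, a human leukaemia line of monocytic origin, turned into macrophages and exposed to ox-LDL, the oxidised lipoprotein that loads macrophages of the artery wall with cholesterol. The 3 siMCT4 libraries come from such cells with MCT4 deficiency, and the 3 control libraries from such cells labelled control. MCT4, the product of SLC16A3, exports lactate with a proton. Since no label says that a non-targeting siRNA was given to the controls, loss of MCT4 and exposure to an siRNA cannot be told apart. The labels give no dose or time of ox-LDL and no separate cultures, so the p-values cover the spread among these libraries alone, which may be technical.

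In glycolysis, hexokinase traps glucose as glucose 6-phosphate, phosphofructokinase commits it to breakdown, and the lower enzymes yield ATP, NADH and pyruvate. Pyruvate that is reduced to lactate leaves the cell through transporters such as MCT4. The pentose phosphate pathway branches off at glucose 6-phosphate and makes NADPH and ribose, while glycogen is built from glucose 1-phosphate by way of UDP-glucose.

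Total counts were 61880619 to 69103124 in siMCT4 libraries and 65010219 to 69181938 in controls. SLC16A3 checked the labels, with 10.8, 11.0 and 13.4 CPM in siMCT4 libraries, against 115, 101 and 108 CPM in controls (log2 change -3.20, SE 0.102, adjusted p = 1.12e-06; exact two-sided permutation p = 0.1, the smallest that 3 against 3 allows). CPM is the count scaled to a common library size with TMM factors, and FPKM scales the count by gene length and library size. All 10 macrophage markers were at 1 FPKM or more in every library. Their sum was 1089 to 1123 FPKM in siMCT4 libraries and 1217 to 1237 FPKM in controls, and 7 were called lower. Of the markers of other cells, 5 of 6 fibroblast genes had a row and summed to 0.839 to 3.20 FPKM in siMCT4 libraries and 0.527 to 0.750 FPKM in controls, and 3 of 4 B cell genes summed to 2.27 to 2.63 FPKM in siMCT4 libraries and 0.550 to 0.606 FPKM in controls. The T cell gene TRAC, the member of its list of 5 that had a row, stood at 2.13 to 2.32 FPKM in siMCT4 libraries and 10.8 to 13.8 FPKM in controls. Epithelial and endothelial genes, 3 of 4 in each list, summed to at most 0.896 FPKM in siMCT4 libraries and 0.245 FPKM in controls. Of these lists 1 fibroblast and 2 B cell genes were called higher and TRAC lower. The part of these shifts in the results was not tested, and in bulk RNA fewer cells of a type and less RNA per cell cannot be told apart. The siMCT4 libraries also differed among themselves. Genes with a GC content of at least 64% and a mean above 4 CPM (401 genes) had median log2 ratios to the control mean of -0.94 in siMCT4 library 1, -1.05 in library 2 and -0.22 in library 3.

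MCT4-deficient macrophages had lower transcript levels of 3 of the 4 hexose transporters and of 9 of the 16 glycolytic enzymes, GAPDH among them, while the glycogen genes split evenly. PFKFB4 had the largest rise and SLC2A3 the largest fall. All 37 genes passed the filter on low counts, and 18 were lower, 6 higher and 13 did not pass the test (edgeR's quasi-likelihood test at an adjusted p under 0.05). The Benjamini-Hochberg adjustment ran over 19944 genes for every adjusted p here unless limma or a left-out replicate is named. It ran over 14515 genes in limma and 20713 to 21022 genes with a replicate left out. The background was high: 20.8% of all tested genes were called lower and 20.6% higher. Among the 11910 genes with a mean above 3 CPM, which takes in every member, those shares were 29.0% and 27.0%. In either direction 24 members were called, against 41.4% of all tested genes and 56.0% of those above 3 CPM. The members' median log2 change was -0.17, against -0.01 over all tested genes. The CPM of the groups did not overlap for 25 members, against 55.0% of all tested genes. That share was not taken for the genes above 3 CPM, so the comparison is not matched for abundance. On TPM, which moved the median log2 change of all genes to 0.16, limma called 14 members lower and 11 higher. Of the 14515 genes in that fit, 2648 were lower and 5602 higher. Without siMCT4 replicate 3, 18 members were lower and 8 higher, against 4814 and 4894 of 20861 genes.

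**Figure D1:**
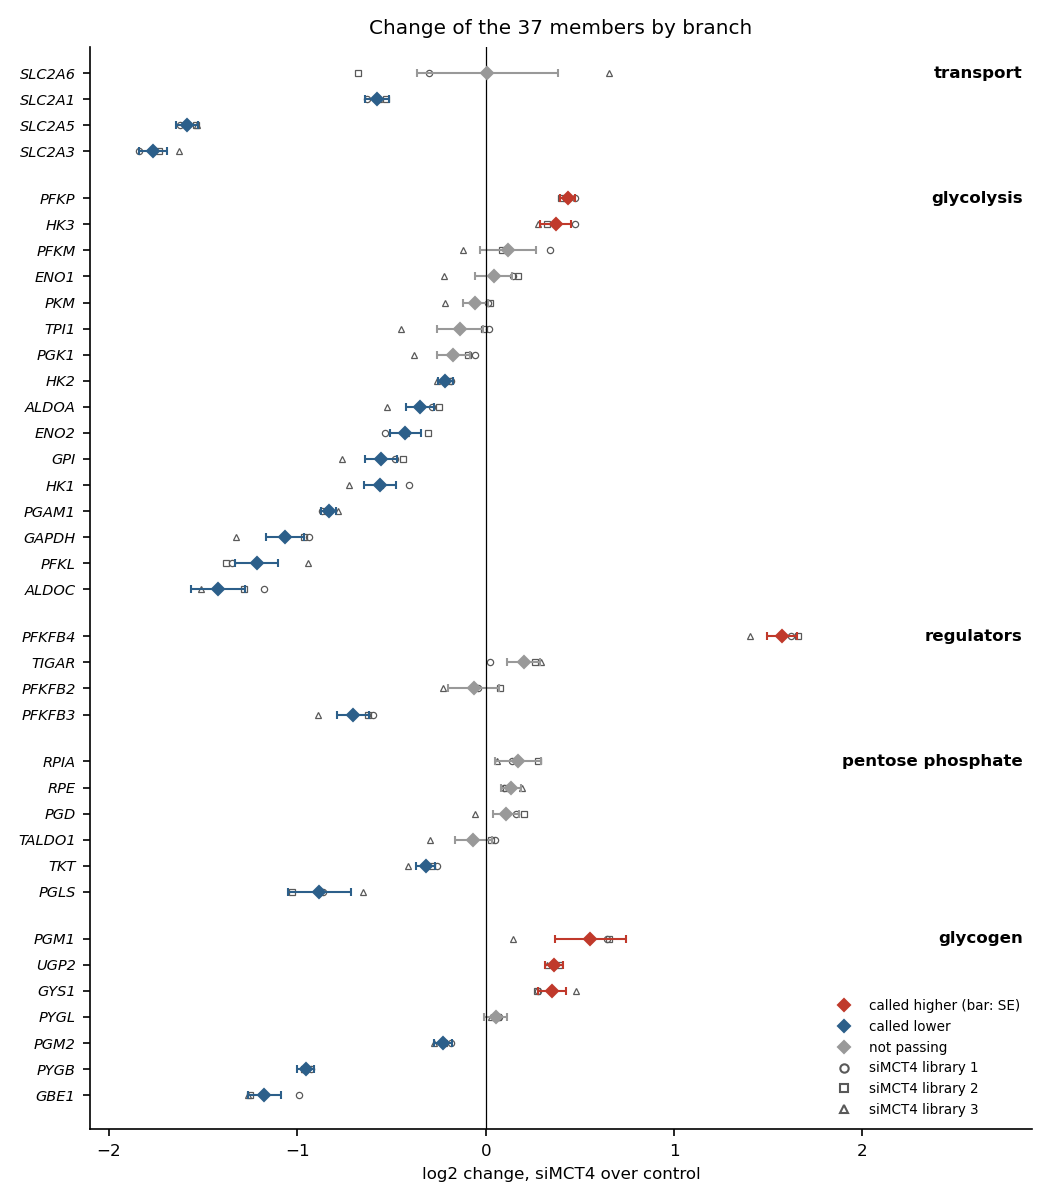
Log2 change of siMCT4 over control libraries for the 37 genes, grouped by branch: large symbols with bars give the edgeR estimate and its SE, and small open symbols the log2 ratio of each siMCT4 library to the control mean. PFKFB4 lies farthest to the right (1.57) and SLC2A3 farthest to the left (-1.76).

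By branch, 3 of 4 transporters were lower and 0 higher, with a median log2 change of -1.08; 0 were also higher with DESeq2 or at an unadjusted p under 0.05 in edgeR. Of the 16 glycolytic enzymes 9 were lower and 2 higher, with a median of -0.28. Of the 4 regulators 1 was lower and 1 higher, with a median of 0.07. Of the 6 pentose phosphate enzymes 2 were lower and 0 higher, with a median of 0.02; 0 were higher with DESeq2 and 1 at an unadjusted p under 0.05 in edgeR. Of the 7 glycogen enzymes 3 were lower and 3 higher, with a median of 0.05. Transporters and glycolytic enzymes were thus mostly lower, and regulators and glycogen enzymes had as many higher as lower. Most pentose phosphate enzymes did not pass. Each branch rests on few genes. Of all tested genes 20.8% were lower and 20.6% higher, and of those with a mean above 3 CPM 29.0% and 27.0%. Per length, the transporters summed to 24.4 ± 1.07 FPKM in siMCT4 libraries and 42.1 ± 2.19 FPKM in controls (SD, n = 3 each, as for every mean ± SD here). The glycolytic enzymes summed to 1082 ± 98.9 FPKM in siMCT4 libraries and 1407 ± 21.2 FPKM in controls. GAPDH alone, a large part of that difference, had 249 ± 36.4 FPKM in siMCT4 libraries and 483 ± 10.05 FPKM in controls. The regulators summed to 38.0 ± 3.37 FPKM in siMCT4 libraries and 23.4 ± 0.930 FPKM in controls. The pentose phosphate enzymes summed to 465 ± 39.7 FPKM in siMCT4 libraries and 416 ± 11.1 FPKM in controls. For the glycogen enzymes the sums were 103 ± 1.89 FPKM in siMCT4 libraries and 114 ± 4.27 FPKM in controls. FPKM carries no TMM factor, so that log2 ratios of siMCT4 over control sit 0.11 higher in FPKM than in CPM.

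Promoters of 35 of the 37 genes were found in RefSeq (GRCh38.p14), as 58 windows of 300 bases that run from 250 bases before a transcription start to 50 after it, some genes having several. SLC2A3 and PFKFB2 were not analysed here. The windows were searched on both strands for ACGTG, the form with A of the core of the hypoxia response element. The form with G, GCGTG, was not searched for. They were also searched for CACGTG, the E-box bound by MYC and related factors, which holds ACGTG on each strand. ACGTG was in 21 of the 58 windows (36.2%), against 21.4% of all 35116 windows of that table, and CACGTG in 6 (10.3%), against 7.26%. The windows were not matched for GC content. Some windows of one gene overlap, as for PFKM and ALDOA, so a site can be counted more than once. A window with ACGTG was found for 3 of 6 genes called higher, 9 of 17 called lower and 5 of 12 that did not pass, and for 0 of 3 windows of the transporters. The counts by gene cannot be read against the 21.4%, which is per window. A gene with several windows can be found more easily, and no share over all genes was taken. Shown are GAPDH, ALDOC and PFKFB3, all called lower and each with CACGTG, and PFKFB4, the largest rise, whose window has no ACGTG. No rule set beforehand chose these genes, and they do not stand for the rest. PFKP and UGP2, called higher, each have a window with ACGTG, while PFKL, PGAM1 and PYGB, called lower, have none. The windows shown for PFKFB4 and ALDOC hold GCGTG, so a window without ACGTG may still hold the core. Capitals mark ACGTG read on either strand. A second start of PFKFB3, not shown, also has no ACGTG.
GAPDH, chr12:6535014-6535313, + strand: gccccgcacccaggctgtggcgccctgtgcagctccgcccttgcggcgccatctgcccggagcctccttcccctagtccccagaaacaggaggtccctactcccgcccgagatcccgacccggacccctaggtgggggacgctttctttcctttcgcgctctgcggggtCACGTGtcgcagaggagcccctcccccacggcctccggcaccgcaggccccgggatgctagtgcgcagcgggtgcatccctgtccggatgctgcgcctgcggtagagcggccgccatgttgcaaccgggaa
ALDOC, chr17:28576846-28577145, - strand: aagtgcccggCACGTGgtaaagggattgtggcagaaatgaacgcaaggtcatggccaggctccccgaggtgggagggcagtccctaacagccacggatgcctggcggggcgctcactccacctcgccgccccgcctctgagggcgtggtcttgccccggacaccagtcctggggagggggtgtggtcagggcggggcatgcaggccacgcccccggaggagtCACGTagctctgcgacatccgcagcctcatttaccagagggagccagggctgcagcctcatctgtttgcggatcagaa
PFKFB3, chr10:6202682-6202981, + strand: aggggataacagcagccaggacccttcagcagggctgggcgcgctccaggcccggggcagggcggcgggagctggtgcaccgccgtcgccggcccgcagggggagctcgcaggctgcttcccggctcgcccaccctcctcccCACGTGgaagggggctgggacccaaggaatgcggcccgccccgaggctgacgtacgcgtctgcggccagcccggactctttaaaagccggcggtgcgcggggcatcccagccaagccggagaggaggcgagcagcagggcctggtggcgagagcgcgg
PFKFB4, chr3:48556754-48557053, - strand: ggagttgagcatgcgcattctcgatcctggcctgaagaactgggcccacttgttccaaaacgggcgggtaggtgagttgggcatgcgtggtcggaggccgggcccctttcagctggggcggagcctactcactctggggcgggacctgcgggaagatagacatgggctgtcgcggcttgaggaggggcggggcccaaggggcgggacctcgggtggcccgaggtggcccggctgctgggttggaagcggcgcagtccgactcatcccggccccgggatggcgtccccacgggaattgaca

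Of the transporters, SLC2A3, SLC2A5 and SLC2A1 fell. SLC2A3 (ENSG00000059804; GRCh38 chromosome 12, 7919230 to 7936187, - strand), which encodes the high-affinity glucose transporter GLUT3, had 14.1, 15.3 and 16.5 CPM in siMCT4 libraries, against 53.2, 52.2 and 50.7 CPM in controls. All siMCT4 values lay far below all control values (log2 change -1.76, SE 0.0740, adjusted p = 3.90e-06). Its near-identical paralog SLC2A14, with which reads may be shared, averaged 0.795 ± 0.233 CPM in siMCT4 libraries and 2.37 ± 0.242 CPM in controls and was also called lower (log2 change -1.57, adjusted p = 0.00247). SLC2A5 (ENSG00000142583; GRCh38 chromosome 1, 9035106 to 9088457, - strand), which encodes the fructose transporter GLUT5, had 20.9, 22.1 and 22.3 CPM in siMCT4 libraries, against 62.8, 67.2 and 65.9 CPM in controls. The groups were again far apart (log2 change -1.59, SE 0.0582, adjusted p = 2.24e-06). SLC2A1, which encodes the basal glucose transporter GLUT1, had 118, 127 and 124 CPM in siMCT4 libraries, against 196, 186 and 169 CPM in controls, with no overlap (log2 change -0.58, SE 0.0640, adjusted p = 0.000351). SLC2A6, a transporter of lysosomal membranes, had 2.43, 1.75 and 5.16 CPM in siMCT4 libraries, against 3.13, 3.04 and 3.14 CPM in controls. Its siMCT4 libraries lay on both sides of the controls, library 3 above them (log2 change 0.0068, adjusted p = 0.991). Its GC content is 64.1%, and its log2 change was 0.48 with GC offsets (adjusted p = 0.170) and -0.55 without siMCT4 replicate 3 (adjusted p = 0.0646).

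The makeup of the transporter transcripts differed between the groups. Of the 4 genes' summed FPKM, SLC2A1 held 74.4%, 75.3% and 71.4% in siMCT4 libraries, against 60.8%, 58.9% and 57.2% in controls. SLC2A3 held 9.93 ± 0.345% in siMCT4 libraries and 18.2 ± 0.387% in controls, and SLC2A5 13.0 ± 0.163% in siMCT4 libraries and 21.0 ± 1.43% in controls. GLUT1 transcripts were the most abundant in every library, with a larger share in siMCT4 libraries; shares are given here as descriptions, with no test.

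**Figure D2:**
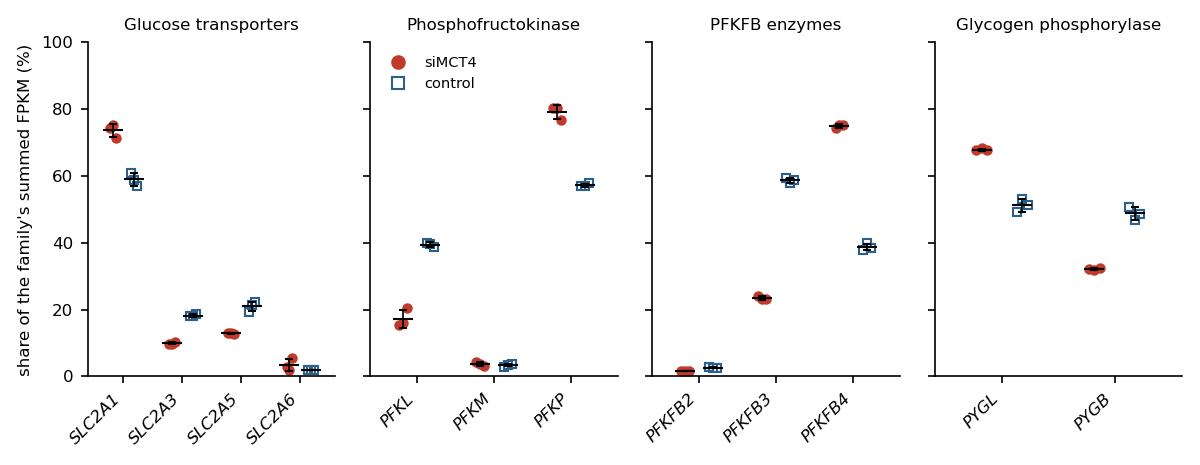
Share of each paralog in the summed FPKM of its family, in percent, by library: filled circles are siMCT4 libraries, open squares control libraries, and black lines the mean ± SD of 3 libraries. PFKFB4 held 74.5% to 75.4% in siMCT4 libraries and 37.8% to 39.8% in controls.

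At the first glycolytic step the hexokinases moved in different directions. HK2, the inducible hexokinase, made up most of the summed hexokinase FPKM, with 93.6 ± 0.425% in siMCT4 libraries and 93.5 ± 0.307% in controls. It had 1275, 1265 and 1211 CPM in siMCT4 libraries, against 1495, 1439 and 1416 CPM in controls, a small fall with no overlap (log2 change -0.21, SE 0.0407, adjusted p = 0.00462). HK2 did not pass in limma on log2(FPKM + 1) (-0.10, adjusted p = 0.101) or TPM (-0.012, adjusted p = 0.827). HK1, the housekeeping form, averaged 51.7 ± 5.72 CPM in siMCT4 libraries and 76.3 ± 3.24 CPM in controls and fell (log2 change -0.56, adjusted p = 0.00157). HK3, the hexokinase of myeloid cells, had 22.7, 20.5 and 19.8 CPM in siMCT4 libraries, against 16.3, 15.6 and 16.7 CPM in controls. Every siMCT4 value lay above every control value (log2 change 0.37, SE 0.0818, adjusted p = 0.00901). Its GC content is 61.6%, and with GC offsets its log2 change was 0.76. GPI, which turns glucose 6-phosphate into fructose 6-phosphate, averaged 218 ± 25.6 CPM in siMCT4 libraries and 321 ± 11.6 CPM in controls and fell as well (log2 change -0.56, adjusted p = 0.00169).

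At phosphofructokinase, the committed step, the subunits moved apart. PFKL, the liver-type subunit (ENSG00000141959; GRCh38 chromosome 21, 44300051 to 44327376, + strand), had 55.9, 54.7 and 74.1 CPM in siMCT4 libraries, against 144, 145 and 140.3 CPM in controls. All siMCT4 values were far lower, library 3 being the highest of them (log2 change -1.22, SE 0.115, adjusted p = 0.000159). The GC content of PFKL is 64.1%, a range in which siMCT4 libraries 1 and 2 read low, and with GC offsets its log2 change was -0.66 (adjusted p = 3.79e-05). PFKP, the platelet-type subunit (ENSG00000067057; GRCh38 chromosome 10, 3066333 to 3137718, + strand), had 252, 239 and 243 CPM in siMCT4 libraries, against 179, 181 and 183 CPM in controls, with no overlap (log2 change 0.43, SE 0.0403, adjusted p = 0.000145). PFKM, the muscle-type subunit, averaged 10.7 ± 1.79 CPM in siMCT4 libraries and 9.81 ± 1.02 CPM in controls and did not pass (log2 change 0.12, adjusted p = 0.574); exons of SENP1 on the opposite strand overlap it, and that gene, in its own row, had 111% as many counts as PFKM. The 3 subunits summed to 38.5 ± 1.26 FPKM in siMCT4 libraries and 36.4 ± 0.567 FPKM in controls. Of this sum PFKP held 79.1 ± 2.07% in siMCT4 libraries and 57.3 ± 0.464% in controls, and PFKL 17.3 ± 2.66% in siMCT4 libraries and 39.4 ± 0.701% in controls.

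Below that step the largest falls were in ALDOC and GAPDH. ALDOC, the minor aldolase, had 4.49, 4.14 and 3.45 CPM in siMCT4 libraries, against 11.1, 11.4 and 9.86 CPM in controls, with no overlap (log2 change -1.42, SE 0.142, adjusted p = 0.000209). ALDOA, the main aldolase, held 99.0 ± 0.0611% in siMCT4 libraries and 98.0 ± 0.190% in controls when both genes' FPKM were summed. It averaged 602 ± 61.1 CPM in siMCT4 libraries and 766 ± 20.7 CPM in controls and fell less (log2 change -0.35, adjusted p = 0.00774), a call that was lost in limma on TPM (-0.15, adjusted p = 0.132). GAPDH, the enzyme that yields the NADH of glycolysis, had 675, 663 and 515 CPM in siMCT4 libraries, against 1264, 1299 and 1312 CPM in controls. The groups were well apart, and siMCT4 library 3 was the lowest (log2 change -1.06, SE 0.0995, adjusted p = 0.000151). PGAM1, a phosphoglycerate mutase, had 195, 199 and 207 CPM in siMCT4 libraries, against 359.6, 357 and 355 CPM in controls, each group closely spaced (log2 change -0.83, SE 0.0406, adjusted p = 7.01e-06). ENO2, the minor enolase, averaged 18.9 ± 1.54 CPM in siMCT4 libraries and 25.4 ± 0.989 CPM in controls and fell (log2 change -0.43, adjusted p = 0.00489).

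The other steps did not pass. TPI1, triosephosphate isomerase, averaged 108 ± 18.6 CPM in siMCT4 libraries and 119 ± 6.55 CPM in controls (log2 change -0.13, adjusted p = 0.417). PGK1, phosphoglycerate kinase, averaged 310.4 ± 36.7 CPM in siMCT4 libraries and 349 ± 13.9 CPM in controls (log2 change -0.17, adjusted p = 0.155). PKM, pyruvate kinase, averaged 1128 ± 104 CPM in siMCT4 libraries and 1172 ± 16.1 CPM in controls (log2 change -0.056, adjusted p = 0.547). For these enzymes the difference was smaller than the spread of the siMCT4 libraries or close to it. ENO1, the main enolase, had 596, 608 and 463 CPM in siMCT4 libraries, against 528, 549.6 and 540.2 CPM in controls, and siMCT4 library 3 lay below the controls while libraries 1 and 2 lay above them (log2 change 0.042, adjusted p = 0.769). Without siMCT4 replicate 3, ENO1 was called higher (log2 change 0.18, adjusted p = 0.00224). In siMCT4 library 3 the log2 ratio to the control mean was -0.45 for TPI1, -0.38 for PGK1, -0.22 for PKM and -0.22 for ENO1, below that of libraries 1 and 2 for each. Pseudogenes have rows of their own, whose counts came to 2.49% of the number counted for TPI1 and to at most 0.295% of the number for GAPDH, PGAM1, PGK1, ENO1 or PKM, and reads could be split between such copies. Of genes that overlap on the same strand, also counted in their own rows, ATP7A had 10.4% as many counts as PGK1, and ENSG00000285043 had 7.96% as many as ALDOA.

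**Figure D3:**
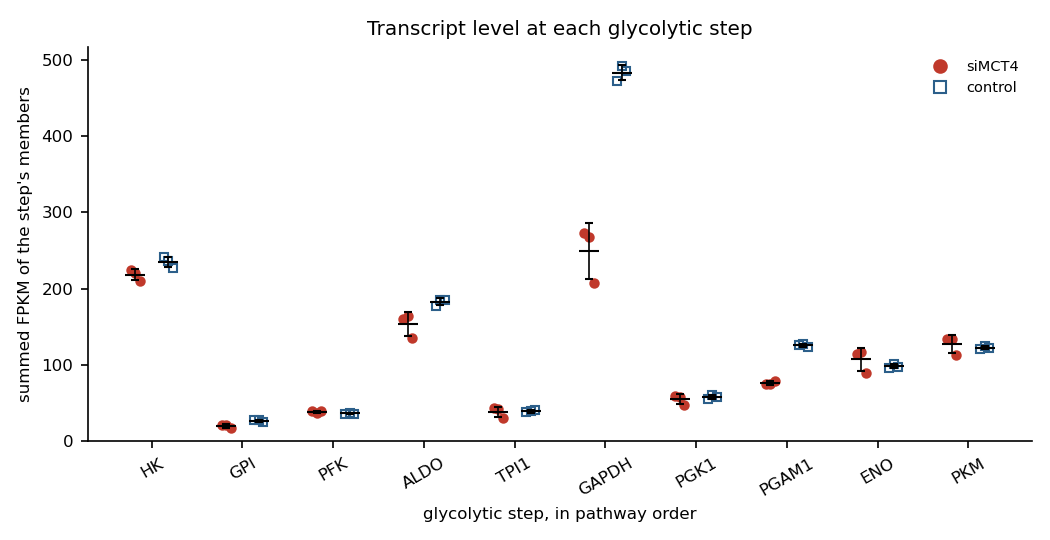
Summed FPKM of the members at each glycolytic step, in pathway order: filled circles are siMCT4 libraries, open squares control libraries, and black lines the mean ± SD of 3 libraries. The gap is wide at GAPDH, with 249 ± 36.4 FPKM in siMCT4 libraries and 483 ± 10.05 FPKM in controls.

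The regulators set the level of fructose 2,6-bisphosphate, a strong activator of phosphofructokinase. PFKFB4, whose product makes and breaks down this metabolite (ENSG00000114268; GRCh38 chromosome 3, 48517684 to 48561972, - strand), had 175, 179.8 and 151 CPM in siMCT4 libraries, against 52.8, 59.7 and 57.4 CPM in controls. Every siMCT4 library lay far above every control (log2 change 1.57, SE 0.0821, adjusted p = 9.53e-06). UCN2, on the same strand, overlaps its exons; in its own row it had 27.5% as many counts as PFKFB4 over the 6 libraries, and it also rose (log2 change 2.09, adjusted p = 6.97e-05), so reads of the shared stretch could belong to either. PFKFB3, the paralog with the most kinase activity (ENSG00000170525; GRCh38 chromosome 10, 6144934 to 6254644, + strand), had 56.6, 55.6 and 46.1 CPM in siMCT4 libraries, against 83.0, 86.8 and 87.9 CPM in controls, lower in every siMCT4 library (log2 change -0.70, SE 0.0835, adjusted p = 0.000484).

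Within this family the order of the levels turned round. Of the summed FPKM of PFKFB2, PFKFB3 and PFKFB4, PFKFB4 held 75.0 ± 0.488% in siMCT4 libraries and 38.7 ± 1.01% in controls, and PFKFB3 held 23.4 ± 0.522% in siMCT4 libraries and 58.7 ± 0.827% in controls. The sum itself was 35.5 ± 3.49 FPKM in siMCT4 libraries and 21.4 ± 0.932 FPKM in controls. PFKFB2 averaged 5.96 ± 0.681 CPM in siMCT4 libraries and 6.23 ± 0.272 CPM in controls and did not pass (log2 change -0.064, adjusted p = 0.742). Its value is uncertain: exons of YOD1 on the opposite strand overlap it, that gene had 11.4 times as many counts in its own row, and no source used here states the strand setting of the counting. TIGAR, a phosphatase that lowers fructose 2,6-bisphosphate, had 21.1, 24.9 and 25.5 CPM in siMCT4 libraries, against 20.6, 20.2 and 21.4 CPM in controls. Its lowest siMCT4 library lay within the control range, and it did not pass (log2 change 0.20, adjusted p = 0.115), though it was called higher without siMCT4 replicate 1 (log2 change 0.30, adjusted p = 0.0278) and in limma on TPM (0.36, adjusted p = 0.0131).

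**Figure D4:**
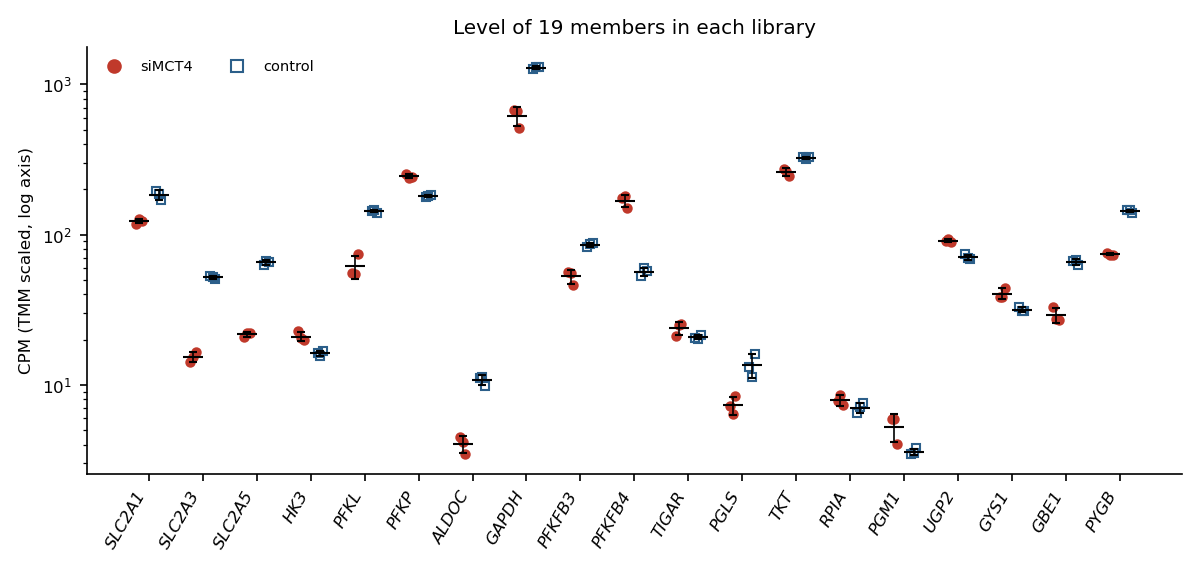
CPM on a log axis of 19 members in each library: filled circles are siMCT4 libraries, open squares control libraries, and black lines the mean ± SD of 3 libraries. PFKFB4 had 151 to 179.8 CPM in siMCT4 libraries, against 52.8 to 59.7 CPM in controls, while TIGAR and RPIA overlap between the groups.

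Of the pentose phosphate members, PGLS and TKT fell. PGLS, the lactonase of the oxidative arm, had 7.20, 6.36 and 8.40 CPM in siMCT4 libraries, against 13.2, 11.2 and 16.1 CPM in controls, with no overlap but a wide spread in controls (log2 change -0.88, SE 0.168, adjusted p = 0.00463). Its GC content is 61.6%, and with GC offsets its log2 change was -0.51 (adjusted p = 0.0231). PGLS-DT, on the opposite strand, overlaps its exons; over the whole gene it had 52.6% as many counts as PGLS, in a row of its own, and did not pass (log2 change -0.021, adjusted p = 0.928). TKT, the transketolase that links the pathway to glycolysis, had 272, 267 and 244 CPM in siMCT4 libraries, against 330.0, 319 and 327 CPM in controls, with no overlap (log2 change -0.32, SE 0.0508, adjusted p = 0.00202; in limma on TPM -0.12, adjusted p = 0.0864). TALDO1, the transaldolase of the pathway, averaged 184 ± 23.7 CPM in siMCT4 libraries and 192 ± 13.1 CPM in controls and did not pass (log2 change -0.066, adjusted p = 0.632).

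PGD, which makes NADPH in the oxidative arm, was abundant per length, with 329.7 ± 31.8 FPKM in siMCT4 libraries and 284 ± 8.13 FPKM in controls. It had 1182, 1217 and 1015 CPM in siMCT4 libraries, against 1030.1, 1076 and 1061 CPM in controls, with siMCT4 library 3 below the controls and libraries 1 and 2 above them (log2 change 0.11, adjusted p = 0.254). PGD was called higher without siMCT4 replicate 3 (log2 change 0.21, adjusted p = 0.00114), with GC offsets (0.14, adjusted p = 0.0458) and in limma on TPM (0.31, adjusted p = 0.0121). RPIA, the ribose 5-phosphate isomerase, had 7.80, 8.62 and 7.36 CPM in siMCT4 libraries, against 6.46, 7.07 and 7.57 CPM in controls. The ranges overlapped (log2 change 0.17, adjusted p = 0.309; in limma on TPM 0.35, adjusted p = 0.0110). RPE, the epimerase beside it, had 146 to 156 CPM in siMCT4 libraries, against 132 to 144 CPM in controls, with no overlap, but missed the threshold (log2 change 0.14, adjusted p = 0.0771; in limma on TPM 0.34, adjusted p = 0.00318). Exons of KANSL1L on the opposite strand overlap RPE; that gene, in its own row, had 12.5% as many counts and was called higher (log2 change 0.63, adjusted p = 0.00455).

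Among the glycogen members, genes of synthesis were both higher and lower. UGP2, which makes UDP-glucose, had 90.8, 92.8 and 88.8 CPM in siMCT4 libraries, against 73.7, 69.5 and 68.6 CPM in controls, with no overlap (log2 change 0.36, SE 0.0491, adjusted p = 0.000922). GYS1, the glycogen synthase of tissues other than liver, had 38.6, 38.5 and 44.4 CPM in siMCT4 libraries, against 33.0, 31.1 and 31.0 CPM in controls, with no overlap (log2 change 0.35, SE 0.0752, adjusted p = 0.00790; log2 change 0.55 with GC offsets). GBE1, the branching enzyme (ENSG00000114480; GRCh38 chromosome 3, 81489703 to 81761645, - strand), had 32.8, 27.3 and 27.1 CPM in siMCT4 libraries, against 66.5, 68.3 and 62.3 CPM in controls, far lower in every siMCT4 library (log2 change -1.18, SE 0.0880, adjusted p = 5.13e-05). PGM1, which interconverts glucose 1-phosphate and glucose 6-phosphate, had 5.89, 5.94 and 4.02 CPM in siMCT4 libraries, against 3.46, 3.54 and 3.78 CPM in controls. Its siMCT4 values were all higher, that of library 3 only just (log2 change 0.56, SE 0.188, adjusted p = 0.0491). PGM1 did not pass when any control replicate or siMCT4 replicate 1 or 2 was left out (adjusted p = 0.0936 to 0.133) and did without siMCT4 replicate 3 (adjusted p = 0.00436); exons of ITGB3BP on the opposite strand overlap it, and that gene, in its own row, had 63.2% as many counts as PGM1. PGM2, a phosphopentomutase that also acts on glucose phosphates, averaged 88.3 ± 2.73 CPM in siMCT4 libraries and 103 ± 3.40 CPM in controls and fell (log2 change -0.23, adjusted p = 0.00774), a call lost in limma on log2(FPKM + 1) (-0.11, adjusted p = 0.0811) and TPM (-0.026, adjusted p = 0.648).

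In glycogen breakdown, PYGB, the brain-type phosphorylase, had 75.3, 73.3 and 73.4 CPM in siMCT4 libraries, against 146, 145 and 139.9 CPM in controls, closely spaced within each group and well apart (log2 change -0.96, SE 0.0427, adjusted p = 4.98e-06). PYGL, the liver-type form, averaged 159.7 ± 2.49 CPM in siMCT4 libraries and 154 ± 11.8 CPM in controls and did not pass (log2 change 0.053, adjusted p = 0.523; in limma on TPM 0.26, adjusted p = 0.0155). Of the summed FPKM of both phosphorylases, PYGL held 67.9 ± 0.310% in siMCT4 libraries and 51.2 ± 1.93% in controls.

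Of 65 further genes of these pathways, 59 had a row and 49 were tested. Of these, 11 were higher, 17 lower and 21 did not pass, with a median log2 change of 0.0002. The shares over all tested genes, against which these counts and those by branch below are read, were 20.6% higher and 20.8% lower. In glycolysis 4 of 7 were higher and 1 lower. ADPGK, the ADP-dependent glucokinase of the endoplasmic reticulum, had 255, 252 and 256 CPM in siMCT4 libraries, against 98.5, 91.3 and 97.8 CPM in controls, far higher in every siMCT4 library (log2 change 1.41, SE 0.0459, adjusted p = 1.26e-06). MINPP1, a phosphatase of inositol phosphates and of 2,3-bisphosphoglycerate, averaged 34.3 ± 5.22 CPM in siMCT4 libraries and 16.3 ± 0.610 CPM in controls and rose (log2 change 1.07, adjusted p = 0.000265). Of 8 further transporters 1 was higher and 3 lower. The one that rose was the inositol carrier SLC2A13 (log2 change 0.62, adjusted p = 0.0145), which did not pass without control replicate 2 (adjusted p = 0.0632) or control replicate 3 (adjusted p = 0.0537).

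Of 8 further pentose phosphate genes 3 were higher and 2 lower. SHPK, a sedoheptulose kinase, averaged 64.1 ± 0.504 CPM in siMCT4 libraries and 30.7 ± 1.53 CPM in controls and rose (log2 change 1.06, adjusted p = 1.06e-05). Of 22 further glycogen genes 3 were higher and 8 lower. PHKA1, a subunit of phosphorylase kinase, averaged 17.9 ± 0.637 CPM in siMCT4 libraries and 35.8 ± 2.26 CPM in controls and fell (adjusted p = 4.57e-05). PPP1R3B, which targets phosphatase 1 to glycogen, also fell (log2 change -0.58, adjusted p = 0.000142). In gluconeogenesis, which makes glucose from pyruvate and other precursors, 3 of 4 were lower and 1 did not pass. PCK2, the mitochondrial phosphoenolpyruvate carboxykinase, fell (log2 change -0.74, adjusted p = 8.89e-05; log2 change -0.35 with GC offsets), as did FBP1, the fructose bisphosphatase (log2 change -0.89, adjusted p = 0.000134).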

How the data were processed

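Per the labels' protocols, paired-end libraries of polyadenylated RNA were made with a strand-marking dUTP step. The tools cutadapt 1.9 and HISAT2 2.2.1 and the build GRCh38 are named, per the submitters' processing notes. How reads were assigned to genes, and whether strand was used, is not given in the sources used here. The deposited values are raw counts and FPKM by gene and library, per the file headers, and FPKM followed the counts per length to within an SD of 0.268%. Among counts of 2 to 41, 58.7% to 60.9% were even, as when each mate of a pair is counted.

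Counts were tested with edgeR 4.0.16 in R 4.3.3 (TMM, filterByExpr with a minimum count of 10 and total of 15, quasi-likelihood F test, group as factor, two-sided). The SE is the log2 change over the square root of F. Log2 ratios of a library add 0.5 CPM. GC content and overlaps come from GENCODE release 29, and GC offsets from a loess fit per library (span 0.3). Alternatives were DESeq2 1.42.0, limma 3.58.1 on log2(FPKM + 1) and log2(TPM + 1) above 0.5 FPKM, RLE scaling, other filters, GC offsets, a replicate block and each library left out. The fits were tested on simulated counts. The members and lists were chosen with earlier results of these data known. All 37 members are named, with each library's value for the 3 largest changes of a branch and members called higher. Such values of HK2, PGAM1, ENO1, PGD and ADPGK, and the overlapping genes, were chosen after their values were seen. The genes whose promoter windows are printed were picked by no rule set beforehand. Up to 2 called further genes per branch were named by smallest adjusted p; 1 gene that this takes is not reported here.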

Additional observations from a re-analysis of the deposited data

How the results depend on the processing

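Under 15 alternatives, 19 of the 37 members were called with the same sign in each: HK3, PFKP, PFKFB4, UGP2 and GYS1 higher, and SLC2A1, SLC2A3, SLC2A5, HK1, GPI, PFKL, ALDOC, GAPDH, PGAM1, ENO2, PFKFB3, PGLS, GBE1 and PYGB lower. No such count was taken over all tested genes, so the 19 cannot be read against a background. Members called higher and lower numbered 6 and 18 with DESeq2, 9 and 16 in limma on log2(FPKM + 1) and 11 and 14 in limma on log2(TPM + 1). Over all genes DESeq2 called 4412 higher and 4299 lower of 19944. Of 14515 genes, limma called 4707 higher and 3254 lower on FPKM, and 5602 and 2648 on TPM. Leaving out each library gave 5 to 8 higher and 18 lower in each case. Of the 20713 to 21022 genes tested in those fits, 6569 to 9708 were called, 3409 to 4894 higher and 3160 to 4814 lower. SLC16A3 ranged from -3.28 to -3.12 in those fits, and was -2.75 with GC offsets, -2.37 on log2(FPKM + 1) and -2.79 on log2(TPM + 1); the pseudocount of 1 understates the change of a gene this low in siMCT4 libraries. Of all called genes, 67.9% were higher on TPM and 59.1% on FPKM, against 49.8% with TMM.

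Branch medians on TPM were -0.85 (transport), -0.082 (glycolysis), 0.23 (regulators), 0.22 (pentose phosphate) and 0.26 (glycogen). On log2(FPKM + 1) transport was -0.84 and glycogen 0.16. Transport was -1.04 with GC offsets and -1.04 with the replicate block added, and glycogen 0.076 with at least 1 CPM in 3 libraries. Leaving out each library gave -1.11 to -1.03 for transport, -0.29 to -0.20 for glycolysis, 0.034 to 0.13 for regulators, -0.0060 to 0.096 for pentose phosphate and 0.021 to 0.13 for glycogen. The cause was not tested.

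Signs turned only in members that did not pass. With GC offsets TALDO1 was 0.047 (0.042 with the replicate block added) and TPI1 0.0084. On log2(FPKM + 1) TALDO1 was 0.036, PFKFB2 0.015 and PKM 0.049. On TPM TALDO1 was 0.13, TPI1 0.053, PFKFB2 0.093, PKM 0.14 and PGK1 0.024. Leaving out each library gave -0.10 to 0.062 for TALDO1, -0.19 to 0.026 for TPI1, -0.12 to 0.045 for PFKFB2, -0.074 to 0.043 for PKM, -0.0041 to 0.18 for ENO1 and -0.55 to 0.31 for SLC2A6, which was -0.14 with the replicate block.

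Libraries of the same number did not deviate together (correlations -0.11, 0.01 and -0.12), nor did each correlate best with its own number. A replicate block called 6921 of 19944 genes, 3341 higher and 3580 lower, with 5 members higher and 18 lower. PGM1 lost its call there (adjusted p = 0.108).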
